A study of Mus musculus with 21 samples.

Results

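Solute carriers are membrane proteins that move amino acids, sugars, metals, ions, nucleotides, vitamins and lipids across the plasma membrane and the membranes of organelles. The genes described here are those whose mouse symbol is Slc followed by a digit, that code for protein and that reached 2 CPM (counts scaled to library size) in at least 3 libraries. Of 381 such symbols in the count table, 375 were protein coding and 194 passed the minimum. Of these, 8 were left out by name (Slc2a1, Slc2a3, Slc2a6, Slc16a1, Slc16a3, Slc11a1, Slc40a1 and Slc48a1), which left 186 genes of the 27179 gene IDs in the table. The other 181 protein-coding genes stayed under the minimum and are not described. Of the 186, 145 passed it in all 21 libraries. Just inside it stood Slc22a4, Slc24a5 and Slc52a3, which passed in exactly 3 libraries, and Slc16a9, which passed in 4. Slc22a4 passed in the 3 monocyte libraries and in no other, so its level had to be higher there. The genes fall into 45 families. Some members are proteins that do not themselves carry a solute (Slc4a1ap, Slc7a6os, Slc9a3r1, Slc9a3r2 and the heavy chain Slc3a2). They were kept by the rule and are counted among the carriers below.

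RNA was measured by sequencing in cells sorted from C57BL/6 mice, with 3 libraries in each of 7 groups. In 6 groups they were cardiac macrophages, of which R1 was Ccr2-negative with low MHC-II, R2 was Ccr2-negative with high MHC-II, and R3 was Ccr2-positive with high MHC-II. Each of the populations came from 3 pools of naive mice and from 3 pools of mice given CAWS, the Candida albicans water-soluble complex that serves as a mouse model of Kawasaki disease. The other group was splenic monocytes, sorted as Ccr2-positive and likewise taken from 3 pools of naive animals. The labels used here do not state the age of the animals, the number per pool or the time after CAWS. The spread between the libraries of a group is therefore that between pools.

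Each library held between 12800136 and 23006155 counts in all, with the deepest libraries in naive R2 and the shallowest in CAWS R3. Lists of marker genes were summed in CPM to check the sorted cells. The resident macrophage list (7 genes, all detected) stood at 17743 to 19787 CPM in naive R1, at 8846 to 10426 in naive R2 and at 4729 to 8262 in naive R3, and the classical monocyte list (7 genes) at 13.9 to 27.3, 23.9 to 42.0 and 2077 to 2655. In the spleen monocytes the monocyte list reached 7899 to 11708 CPM. The cardiomyocyte list (8 genes) stood at 49.0 to 156 CPM in the naive macrophages and at 0.224 to 0.273 in the monocytes, where Myh6, Tnnt2, Myl3 and Ryr2 were at 0. One naive R3 library (replicate 2) carried 211 CPM of the fibroblast list (6 genes) against 14.2 and 18.8 in the other two. The libraries that deviated most from their group were naive R1 replicate 2, monocyte replicate 2 and naive R3 replicate 2, and they are called the 3 widest libraries below.

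As background, a macrophage takes up amino acids through exchangers that often need a partner chain, draws cystine in to make glutathione, and passes the products of digested cells out of the lysosome through carriers of its membrane. Members of the SLC25 family sit in the inner mitochondrial membrane and pass ADP, ATP, phosphate and metabolic acids. Several of these genes are known targets of stress pathways, among them the amino acid response through ATF4, the oxidative stress response through NRF2 and the zinc response through MTF1.

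The 186 genes took a small share of all counts. That share was 1.11% to 1.16% in naive R1, 1.05% to 1.06% in naive R2 and 0.925% to 0.970% in naive R3, and it was 0.826% to 0.892% in the monocytes. After CAWS it was 1.06% to 1.09% in R1, 0.979% to 1.02% in R2 and 0.884% to 0.937% in R3. The ranges of naive R1, naive R2, naive R3 and the monocytes did not overlap. By mean CPM the highest group was the monocytes for 52 genes, naive R2 for 42 and naive R1 for 37, and the monocytes were the lowest group for 90. All genes were not tallied this way, and 63.3% of all genes tested differed between naive R1 and monocytes.

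**Figure D1:**
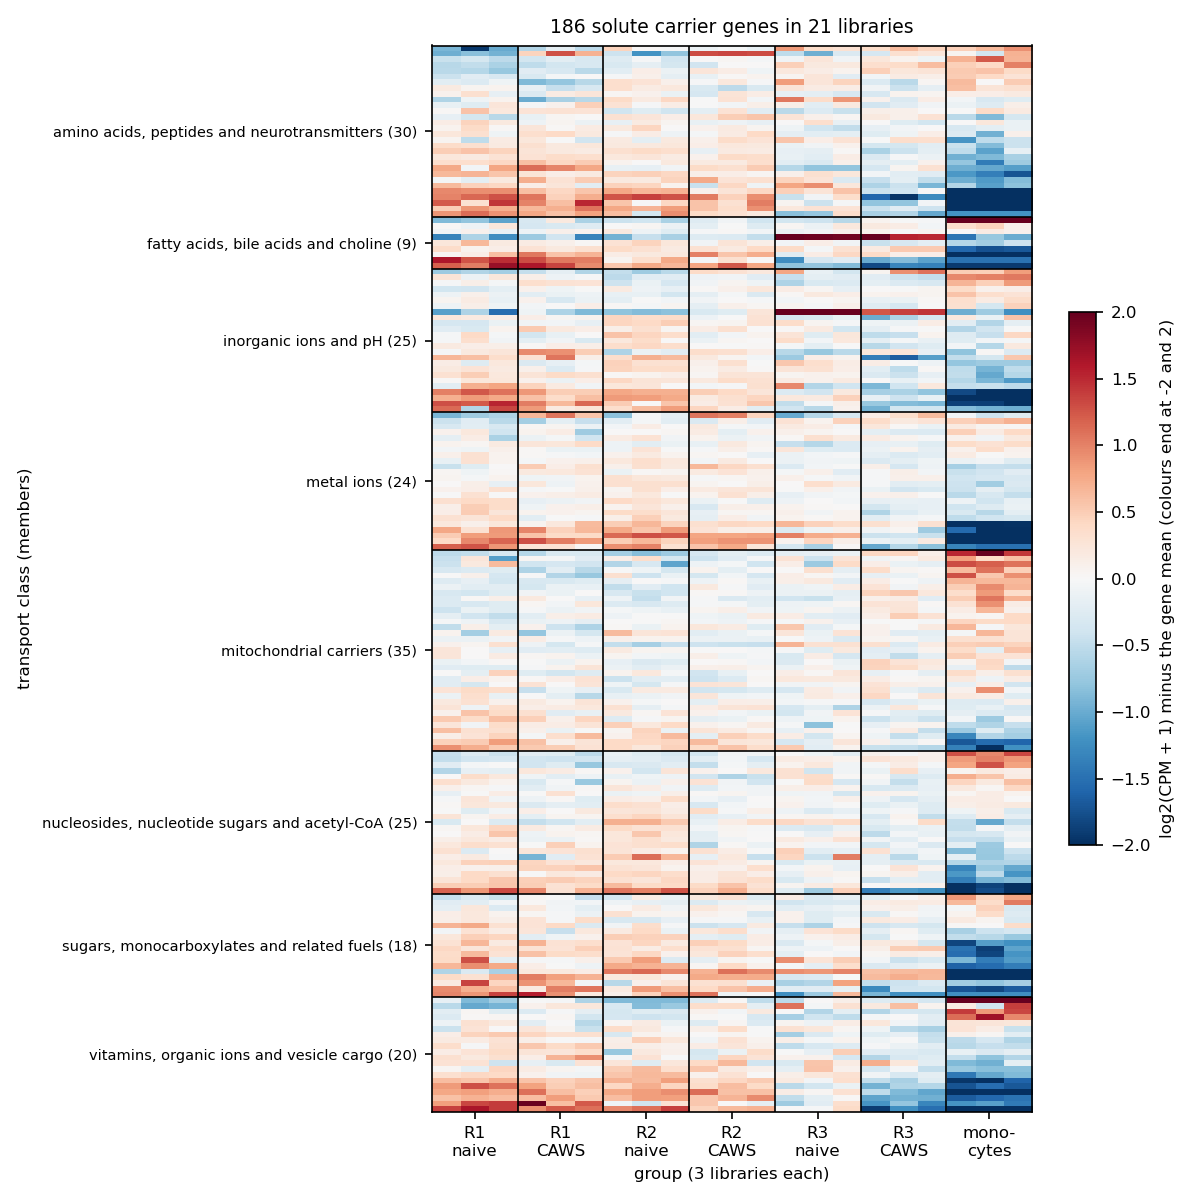
Each row is 1 of the 186 genes, in its transport class and ordered by its difference between naive R1 and monocytes, and each column is 1 library. Colour gives log2(CPM + 1) minus the gene's mean over the 21 libraries. By mean CPM the monocytes were the highest group for 52 genes and the lowest for 90. All genes were not tallied this way.

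On a scale per gene length (RPKM, CPM per kilobase of transcript), the levels ran from 0.219 to 207 as a mean over all libraries, with a median of 9.29. The 3 highest were mitochondrial. Slc25a5, an exchanger of ADP and ATP, had a mean of 207 RPKM, Slc25a3, the phosphate carrier, 167, and Slc25a4, another ADP and ATP exchanger, 109. Then came Slc9a9, a sodium and proton exchanger of endosomes, at 95.8, the taurine transporter Slc6a6 at 78.9, the lysosomal peptide and histidine transporter Slc15a3 at 78.3 and the nucleoside transporter Slc29a1 at 77.3. Slc25a11, a mitochondrial carrier of 2-oxoglutarate and malate, stood at 73.6, the amino acid transporter heavy chain Slc3a2 at 70.1 and the zinc importer Slc39a1 at 66.0. Reads of Slc25a5, Slc25a3 and Slc25a4 can be shared with processed pseudogenes, so their levels are uncertain to that extent.

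CAWS was compared with naive cells in each macrophage population, which asks how the transporter genes of resident and Ccr2-positive macrophages differ in the inflamed heart. In R1, 8 of the 186 genes were higher and 10 were lower after CAWS. All genes tested were called there at 8.94% (6.07% higher and 2.87% lower). In R2, 9 were higher and 14 lower, beside 10.3% of all genes (6.79% higher and 3.5% lower). In R3, 10 were higher and 24 lower, beside 15% of all genes (6.7% higher and 8.29% lower). The share of the transporter genes called in either direction was 9.68% in R1, 12.4% in R2 and 18.3% in R3. Each of these shares was near the background, but the split by direction was not the same. In R1 and R2 more transporter genes were lower than higher, while more of all genes were higher than lower. In R3 both had more genes lower than higher. Whether the splits differed was not tested. The R2 count depended on the setting, for these genes and for all genes. With only the compared groups in the fit, 46 of 185 were called there (24.9%) beside 22.4% of all genes, and with limma voom 48 of 186 (25.8%) beside 21.2%. The median log2 difference of the 186 genes was -0.03, -0.02 and -0.13, against 0.03, 0.02 and -0.06 over all genes tested.

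The same direction was called in all of R1, R2 and R3 for 6 genes. Slc26a11, Slc37a2 and Slc39a4 rose, and Slc38a2, Slc3a2 and Slc7a8 fell. In at least 1 population 18 genes rose and 34 fell, 0 were called in opposite directions, and 134 were called in none. The same overlap was not counted over all genes tested, so whether it is usual is not known. By the series design each pool was divided into the 3 populations, so the 3 comparisons are not independent repeats. Of the calls, 5 in R1, 7 in R2 and 10 in R3 held with each library of the compared groups left out in turn. The number called fell to 8 to 13 in R2 whichever of the 6 libraries was left out. In R1 it fell to 10 without naive R1 replicate 2, 11 without naive R1 replicate 3, 9 without CAWS R1 replicate 2 and 11 without CAWS R1 replicate 3. In R3 it fell to 21 without CAWS R3 replicate 1 and 16 without CAWS R3 replicate 2. The same libraries differed in other cells' markers: the resident macrophage list stood at 0.698, 0.817 and 0.474 times its naive mean in R1, R2 and R3 and the monocyte list at 6.12, 7.98 and 1.56 times. Of the 7 resident genes, 7, 5 and 7 lay below the naive libraries with no overlap, and of the 7 monocyte genes 3, 6 and 3 lay above them. The dendritic cell list stood at 3.66, 12 and 0.745 times its naive mean and the T or NK cell list at 8.62, 1.74 and 2.25 times, the latter at no more than 18.8 CPM in any macrophage library. The endothelial list stood at 1.90, 1.77 and 1.08 times, the neutrophil list at 1.60, 1.24 and 1.87, the cardiomyocyte list at 1.72, 0.988 and 0.675, the erythroid list at 0.813, 0.689 and 0.317, the fibroblast list at 1.15, 1.77 and 0.316 (the last with 1 naive R3 library at 211 CPM), and the B cell list at 1.02, 1.02 and 1.07. The list of general macrophage genes stood at 0.977, 0.890 and 0.905 times. The part of these shifts in the transporter results was not tested. In bulk RNA, a change in the mix of cells and a change in RNA per cell cannot be told apart.

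**Figure D2:**
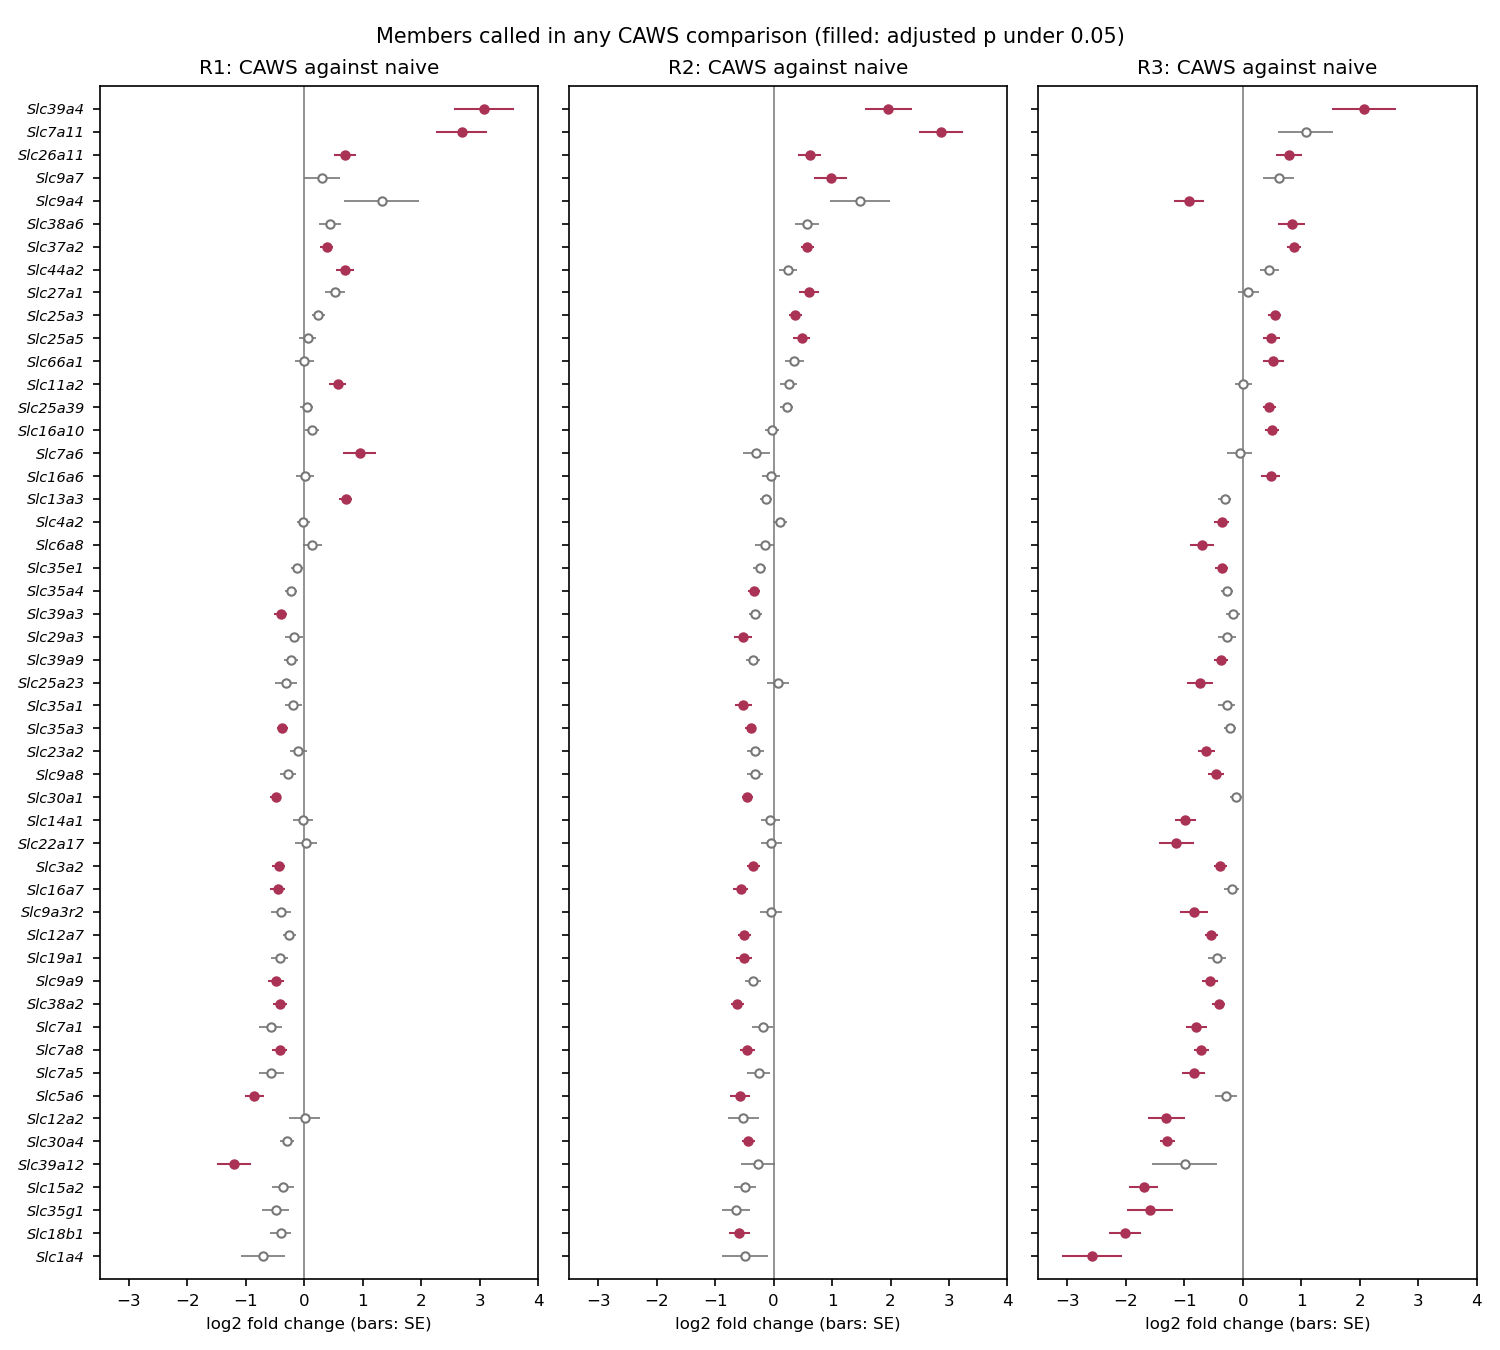
Points give the log2 fold change of CAWS against naive libraries in R1, R2 and R3, with bars for the SE, for 51 of the 52 genes called in any of the comparisons, ordered by the mean of their 3 values. Filled points passed the test. Slc22a4 is left out because naive R2 held no count of it.

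Among amino acid carriers, Slc7a11 rose in R1 and R2. It is the light chain of the cystine and glutamate exchanger, which brings in cystine for glutathione (gene ID 26570, chromosome 3, 50364936 to 50499087, in the GRCm38.p6 build). Slc7a11 measured 0.693, 0.869 and 0.735 CPM in the naive R1 libraries and 3.52, 7.02 and 4.42 in the CAWS R1 libraries. In R2 it measured 1.49, 0.455 and 0.925 CPM against 7.21, 7.37 and 7.19. In R3 it measured 1.33, 0.687 and 1.72 CPM against 1.64, 3.14 and 2.94. Naive and CAWS libraries were apart in R1 and R2, with the 3 CAWS R2 libraries within a narrow range, and overlapped in R3. No naive macrophage library of Slc7a11 reached the 2 CPM minimum for members, while every CAWS R1 and CAWS R2 library did. Among macrophages it passed through CAWS libraries alone, so its rise follows in part from the rule. The log2 fold change was 2.69 ± 0.43 in R1 (adjusted p = 0.000384) and 2.87 ± 0.37 in R2 (adjusted p = 2.12e-05), and both calls held with each library left out. In R3 it was 1.08 ± 0.47 and missed the threshold (adjusted p = 0.127). The difference in effect between R3 and R1 did not pass the test (-1.61 ± 0.68, adjusted p = 0.30).

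The 250 bases before the start of Slc7a11 are shown because they hold a pair of matches to the ATF4 element, the amino acid response motif. They lie on the minus strand at chr3:50443614-50443863 (RefSeq, GRCm38.p6) and run 5′ to 3′ up to the start, with the matches in capitals. The first, TGATGCAA, begins 66 bases before the start on the gene's own strand, and the second, TTGCATCA, begins 47 bases before it and reads TGATGCAA on the other strand. This start lies inside the gene's full annotated span, in which a longer model begins further upstream.
Slc7a11: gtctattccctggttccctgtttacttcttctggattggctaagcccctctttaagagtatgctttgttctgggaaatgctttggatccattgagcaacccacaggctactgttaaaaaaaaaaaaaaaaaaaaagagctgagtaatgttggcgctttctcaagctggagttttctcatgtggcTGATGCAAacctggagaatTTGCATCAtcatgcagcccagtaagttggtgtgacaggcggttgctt

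Matches to motifs were counted on both strands in windows of 250 bases before to 50 after a start, in 184 windows of 140 members and in 32851 windows of all genes. The ATF4 element (TGATGNAA) was in 3.8% of the members' windows and in 3.97% of all windows. The antioxidant element (TGACNNNGC), which NRF2 binds, was in 20.7% and 12.4%, the E-box CACGTG in 15.8% and 7.15%, and a metal response element (TGCACNC or TGCGCNC) in 35.9% and 25.7%. The windows were not matched for base composition, and the E-box reads the same on both strands. A match is a run of letters and not a measured site.

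Slc3a2, the CD98 heavy chain that carries Slc7a11 and several other light chains to the surface, fell after CAWS in each population. It measured 301, 309.5 and 283 CPM in naive R1 and 230.1, 211 and 217 in CAWS R1, with a log2 fold change of -0.44 ± 0.11, adjusted p = 0.0127. In R2 it was -0.35 ± 0.11, adjusted p = 0.0451, and in R3 -0.38 ± 0.11, adjusted p = 0.0218. Every CAWS library stood below every naive library of its population, and the calls depended on single libraries. In R1 the call was lost without naive R1 replicate 2 (adjusted p = 0.050) or CAWS R1 replicate 2 (0.0535), in R2 with any 1 of the 6 libraries left out (adjusted p 0.0892 to 0.135), and in R3 without naive R3 replicate 2 or 3 or CAWS R3 replicate 1, 2 or 3 (adjusted p 0.0556 to 0.0967), or with genes of low count kept (adjusted p = 0.059).

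Slc7a8, a light chain for neutral amino acids that pairs with Slc3a2 (gene ID 50934, chromosome 14, 54722215 to 54781886), measured 257, 221 and 276 CPM in naive R3 and 137, 141 and 184 in CAWS R3. Its log2 fold change there was -0.71 ± 0.13, adjusted p = 0.00062, which held with each library left out. It was -0.42 ± 0.13 in R1 (adjusted p = 0.0393), lost without naive R1 replicate 1, 2 or 3 or CAWS R1 replicate 2 or 3 (adjusted p 0.0647 to 0.112). In R2 it was -0.45 ± 0.13 (adjusted p = 0.0254), lost without naive R2 replicate 1 or 3 or CAWS R2 replicate 1 or 2 (adjusted p 0.0618 to 0.124). Slc38a2, a sodium-coupled carrier of glutamine and other neutral amino acids that is known to rise under amino acid shortage, went down. It measured 123, 109 and 113 CPM in naive R2 and 79.2, 67.3 and 78.6 in CAWS R2 (-0.62 ± 0.11, adjusted p = 0.000975), and this call held with each library left out. The falls in R1 (-0.42 ± 0.11, adjusted p = 0.0256) and R3 (-0.41 ± 0.12, adjusted p = 0.0183) were called as well, the first being lost without naive R1 replicate 1 or CAWS R1 replicate 2 or 3 (adjusted p 0.0718 to 0.10) and the second without naive R3 replicate 1 (adjusted p = 0.0661) or CAWS R3 replicate 2 (0.137). All CAWS libraries of Slc38a2 lay below all naive libraries of the same population.

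In R3, 8 of the 30 amino acid and peptide carriers fell and 2 rose, against 3 down and 2 up in R1 and 3 down and 1 up in R2. All genes tested were lower at 8.29%, 2.87% and 3.5% in R3, R1 and R2, and higher at 6.7%, 6.07% and 6.79%. Slc15a2, which carries short peptides and bacterial peptide fragments into the cell (gene ID 57738, chromosome 16, 36750161 to 36785158), measured 13.4, 17.6 and 24 CPM in naive R3 and 5.55, 4.04 and 7.14 in CAWS R3. The 2 groups were apart and the log2 fold change was -1.70 ± 0.25, adjusted p = 5.38e-05. Slc1a4, a neutral amino acid exchanger, was low throughout and measured 2.9, 3.32 and 1.65 CPM in naive R3 and 0.469, 0.674 and 0.20 in CAWS R3 (-2.58 ± 0.51, adjusted p = 0.00127). Both calls held with each library left out. Slc7a5, the main light chain for leucine and other large amino acids, went from 29.3 ± 7.03 to 16.3 ± 2.71 CPM in R3 (SD, n = 3; -0.84 ± 0.20, adjusted p = 0.00577) and lost the call without CAWS R3 replicate 2 (adjusted p = 0.0521). Slc7a1, the arginine and lysine carrier, fell too (-0.79 ± 0.18, adjusted p = 0.00541, lost without CAWS R3 replicate 2 (adjusted p = 0.0516)), and the creatine transporter Slc6a8 fell from 9.23 ± 0.332 to 5.69 ± 0.513 CPM (-0.70 ± 0.20, adjusted p = 0.0219). The Slc6a8 call was lost without naive R3 replicate 2 or 3 or CAWS R3 replicate 1 or 3 (adjusted p 0.0517 to 0.112), or with genes of low count kept (adjusted p = 0.0576).

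Several amino acid carriers of macrophages did not pass the test in any CAWS comparison. The taurine transporter Slc6a6 measured 599 ± 19.2 CPM in naive R1 and 663 ± 43.8 in CAWS R1 (0.15 ± 0.14, adjusted p = 0.576). The glutamine transporter Slc1a5 measured 43.2 ± 2.2 and 48.9 ± 4.98 CPM in R3 (0.18 ± 0.13, adjusted p = 0.366). Slc7a2, the arginine carrier linked to alternative activation, measured 15.3 ± 5.9 and 15.5 ± 5.27 CPM in R1 (0.02 ± 0.27, adjusted p = 0.976). Of the other followed genes, Slc7a7, Slc15a3, Slc15a4 and Slc36a1 were called in none of the 3 comparisons, with log2 fold changes between -0.04 ± 0.16 (Slc7a7 in R1) and 0.31 ± 0.13 (Slc15a3 in R1).

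**Figure D3:**
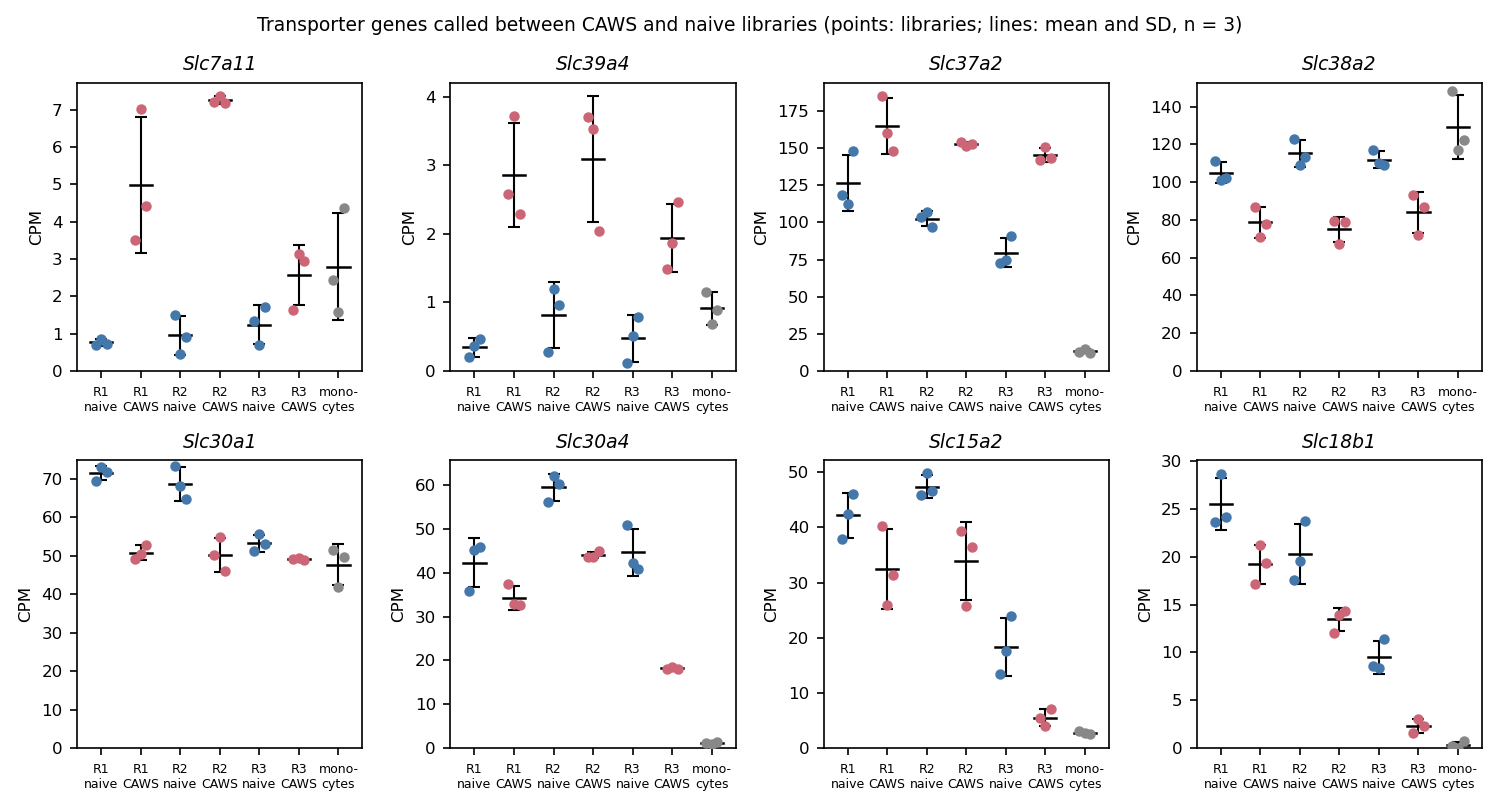
Points give the CPM of each library, and lines the mean and SD of 3, for 8 genes in the 7 groups. CAWS libraries lie above the naive ones for Slc39a4 and Slc37a2 and below them for Slc38a2 in R1, R2 and R3. The fall of Slc30a4, Slc15a2 and Slc18b1 is deepest in R3.

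Among metal carriers, Slc30a1 exports zinc across the plasma membrane and is induced by zinc through MTF1 (gene ID 22782, chromosome 1, 191906697 to 191913248). It measured 69.5, 73.1 and 71.7 CPM in naive R1 against 49.1, 50.6 and 52.8 in CAWS R1, and 73.3, 68.1 and 64.7 in naive R2 against 50.2, 54.8 and 46 in CAWS R2. The groups were apart in both, with log2 fold changes of -0.49 ± 0.10 (adjusted p = 0.00317) and -0.45 ± 0.10 (adjusted p = 0.0050), and both calls held with each library left out. In R3 it measured 51.2, 55.6 and 53 against 49.1, 49.5 and 48.9 CPM, a log2 difference of -0.11 ± 0.10 that missed the threshold (adjusted p = 0.481). Naive R3 was already lower than naive R1 (-0.42 ± 0.10, adjusted p = 0.00301).

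Slc30a4, which moves zinc into vesicles (gene ID 22785, chromosome 2, 122681233 to 122702663), fell in R2 and R3. It measured 50.8, 42.2 and 40.9 CPM in naive R3 and 18.1, 18.6 and 18.1 in CAWS R3, and the log2 fold change was -1.29 ± 0.12, adjusted p = 3.29e-07. The CAWS R3 libraries were nearly equal and all lay far under the lowest naive one. In R2 it went from 59.4 ± 3.09 to 44 ± 0.769 CPM (-0.43 ± 0.11, adjusted p = 0.017), a call lost without naive R2 replicate 2 or 3 or CAWS R2 replicate 1 or 2 (adjusted p 0.0567 to 0.0704). In R1 it did not pass (-0.30 ± 0.12, adjusted p = 0.117). The effect in R3 minus that in R1 was -0.99 ± 0.17 on the log2 scale (adjusted p = 0.00147) and the effect in R3 minus that in R2 was -0.86 ± 0.17 (adjusted p = 0.00448), and both of these held with each library left out.

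The 250 bases before the start of Slc30a4 are shown because this zinc carrier's promoter holds a pair of matches to the metal response element. They lie on the minus strand at chr2:122702664-122702913 (RefSeq, GRCm38.p6) and run 5′ to 3′ up to the start. The capitals mark GAGCGCA and GGGCGCA, which begin 228 and 92 bases before the start and match the element TGCGCNC on the other strand.
Slc30a4: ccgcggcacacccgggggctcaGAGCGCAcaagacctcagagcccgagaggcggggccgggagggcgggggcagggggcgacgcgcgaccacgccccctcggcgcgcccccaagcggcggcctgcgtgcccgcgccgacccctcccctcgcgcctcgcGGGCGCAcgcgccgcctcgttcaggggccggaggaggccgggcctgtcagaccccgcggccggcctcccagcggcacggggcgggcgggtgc

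Slc39a4, a zinc importer, was low everywhere and higher after CAWS in each population. It measured 0.198, 0.372 and 0.467 CPM in naive R1 and 2.58, 3.71 and 2.28 in CAWS R1 (3.07 ± 0.51, adjusted p = 0.000512). In R2 it measured 0.271, 1.19 and 0.969 against 3.7, 3.52 and 2.04 CPM (1.96 ± 0.40, adjusted p = 0.0024), and in R3 0.116, 0.515 and 0.794 against 1.48, 1.87 and 2.47 (2.07 ± 0.55, adjusted p = 0.0125). No CAWS library overlapped a naive one, and the R1 and R2 calls held with each library left out. The R3 call was lost without naive R3 replicate 1 (adjusted p = 0.0686) or CAWS R3 replicate 3 (0.0568). No naive macrophage library of Slc39a4 reached the 2 CPM minimum for members, while CAWS libraries did. Among macrophages it passed through CAWS libraries alone, so its rise follows in part from the rule. Among the other metal carriers, Slc11a2, which takes up iron and other divalent metals, rose in R1 from 25.2 ± 4.18 to 37.2 ± 4.81 CPM (0.57 ± 0.15, adjusted p = 0.0167) and lost the call without naive R1 replicate 1 or 2 or CAWS R1 replicate 1 (adjusted p 0.0688 to 0.11). The zinc importer Slc39a12 fell in R1 (-1.21 ± 0.30, adjusted p = 0.0119), lost without CAWS R1 replicate 3 (adjusted p = 0.0585). The copper importer Slc31a1 and the zinc and manganese importer Slc39a8 passed in none of the 3 comparisons. Over the class of 24 metal carriers, 2 rose and 3 fell in R1, 1 rose and 2 fell in R2, and 1 rose and 2 fell in R3. Over all genes tested, 6.07% rose and 2.87% fell in R1, 6.79% and 3.5% in R2, and 6.7% and 8.29% in R3.

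Among sugar, monocarboxylate and related carriers, Slc37a2, a sugar phosphate exchanger of the endoplasmic reticulum (gene ID 56857, chromosome 9, 37229149 to 37255738), rose in each population. It measured 72.8, 74.7 and 90.6 CPM in naive R3 and 142, 151 and 143 in CAWS R3 (0.87 ± 0.12, adjusted p = 1.82e-05). In R2 it measured 104, 107 and 96.9 and 154, 152 and 152 CPM (0.58 ± 0.11, adjusted p = 0.0017). Both calls held with each library left out. In R1 it measured 118, 112 and 148 against 185, 160.3 and 148 CPM. There the highest naive and the lowest CAWS library were nearly equal, and the rise of 0.38 ± 0.11, adjusted p = 0.0361 was lost without naive R1 replicate 1 or 2 or CAWS R1 replicate 1 or 2 (adjusted p 0.10 to 0.212), or with genes of low count kept or without the 3 widest libraries (adjusted p 0.0665 to 0.0885).

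Slc13a3, a sodium-coupled carrier of succinate and other dicarboxylates (gene ID 114644, chromosome 2, 165405295 to 165473197), rose in R1 and was not called in R2 or R3. It measured 31.1, 38.9 and 30.3 CPM in naive R1 and 55.3, 54.9 and 53 in CAWS R1 (0.70 ± 0.12, adjusted p = 0.000473). In R3 it measured 92.3, 89.4 and 96.2 against 72.3, 74.9 and 76.7 CPM (-0.31 ± 0.11, adjusted p = 0.0639). The CAWS effect in R3 differed from that in R1 by -1.02 ± 0.16 (adjusted p = 0.000647), which held with each library left out. The effect in R2 minus that in R1 was -0.83 ± 0.16 and narrowly missed the threshold (adjusted p = 0.0537). The effect in R3 minus that in R2 was -0.18 ± 0.16 (adjusted p = 0.758). The rise in R1 rests on the same naive R1 libraries as the comparison of naive populations below. Slc16a7, a monocarboxylate carrier, went down in R2 from 73.4 ± 0.81 to 49.7 ± 7.47 CPM (-0.56 ± 0.12, adjusted p = 0.00487) and in R1 (-0.46 ± 0.12, adjusted p = 0.0232), the latter lost without naive R1 replicate 2 or 3 or CAWS R1 replicate 1 or 2 (adjusted p 0.0664 to 0.0878), or without the 3 widest libraries (adjusted p = 0.057). Slc5a6, which takes up biotin and pantothenate, measured 11.7, 14.3 and 12.6 CPM in naive R1 and 7.84, 7.02 and 6.45 in CAWS R1 (-0.85 ± 0.17, adjusted p = 0.00251). Its fall in R2 (-0.57 ± 0.17, adjusted p = 0.0291) was lost without naive R2 replicate 1, 2 or 3 or CAWS R2 replicate 1 or 3 (adjusted p 0.0644 to 0.122). In R3 the aromatic amino acid carrier Slc16a10, of the monocarboxylate family, rose from 73.5 ± 2.9 to 104 ± 1.13 CPM (0.50 ± 0.12, adjusted p = 0.0068). The R1 call of Slc5a6 and the R3 call of Slc16a10 held with each library left out. Of the 18 genes of this class, 2 rose and 2 fell in R1, 1 rose and 2 fell in R2, and 3 rose and 0 fell in R3. The shares of all genes that rose and fell were 6.07% and 2.87% in R1, 6.79% and 3.5% in R2, and 6.7% and 8.29% in R3.

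Of the 25 carriers of inorganic ions, 7 fell and 1 rose in R3, with 1 down and 1 up in R1 and 1 down and 2 up in R2. Beside them, 8.29% of all genes fell and 6.7% rose in R3, 2.87% and 6.07% in R1, and 3.5% and 6.79% in R2. Slc12a7, a potassium and chloride cotransporter that acts in volume control, measured 96.6, 94.9 and 115 CPM in naive R3 and 73.9, 62.3 and 75.2 in CAWS R3 (-0.54 ± 0.11, adjusted p = 0.00235). In R2 it measured 151, 149.7 and 141 and 94.9, 104 and 112 CPM (-0.50 ± 0.11, adjusted p = 0.00416). The groups were apart and both calls held with each library left out. Slc12a2, which brings sodium, potassium and chloride in, went from 23.2 ± 7.11 to 9.32 ± 1.94 CPM in R3 (-1.31 ± 0.32, adjusted p = 0.00909), lost without CAWS R3 replicate 2 (adjusted p = 0.0587), or without the 3 widest libraries (adjusted p = 0.060). Slc9a9 went from 599 ± 52.4 to 428 ± 68.6 CPM in R1 (-0.48 ± 0.13, adjusted p = 0.0259) and from 253 ± 57.4 to 170.5 ± 9.76 in R3 (-0.57 ± 0.14, adjusted p = 0.00696). The first call was lost without naive R1 replicate 2 or 3 or CAWS R1 replicate 2 or 3 (adjusted p 0.0531 to 0.118) and the second without naive R3 replicate 3 (adjusted p = 0.0665). The sulfate transporter Slc26a11 rose in R1 (0.69 ± 0.19, adjusted p = 0.0223), R2 (0.62 ± 0.20, adjusted p = 0.0482) and R3 (0.79 ± 0.22, adjusted p = 0.0162). It lost the call in R1 without naive R1 replicate 1, 2 or 3 or CAWS R1 replicate 1 or 2 (adjusted p 0.0579 to 0.116), in R2 with any 1 of the 6 libraries left out (adjusted p 0.0645 to 0.229), or with relative log expression scaling, with genes of low count kept or with the stricter filter (adjusted p 0.0538 to 0.0741), and in R3 without naive R3 replicate 2 or CAWS R3 replicate 1 or 2 (adjusted p 0.0596 to 0.0832).

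Of the 20 vitamin, organic ion and vesicle carriers, 4 fell and 0 rose in R3, 0 passed in either direction in R1, and 2 fell and 1 rose in R2. Among all genes, 8.29% fell and 6.7% rose in R3, 2.87% and 6.07% in R1, and 3.5% and 6.79% in R2. Slc18b1, a vesicular carrier of polyamines (gene ID 76306, chromosome 10, 23796859 to 23827969), measured 8.63, 8.35 and 11.4 CPM in naive R3 and 1.56, 3.07 and 2.34 in CAWS R3 (-2.01 ± 0.27, adjusted p = 2.03e-05). The urea transporter Slc14a1 measured 57.6, 53.8 and 64.5 and 36.6, 27.7 and 25 CPM (-0.98 ± 0.18, adjusted p = 0.000684). Neither gene's naive and CAWS R3 libraries overlapped, and both calls held with each library left out. In R2 Slc18b1 fell by 0.59 ± 0.18 (adjusted p = 0.0396), lost without naive R2 replicate 2 or 3 or CAWS R2 replicate 1, 2 or 3 (adjusted p 0.0683 to 0.196). The ascorbate transporter Slc23a2 went from 86 ± 12 to 55.8 ± 8.04 CPM in R3 (-0.62 ± 0.15, adjusted p = 0.00653) and lost the call without CAWS R3 replicate 2 (adjusted p = 0.0567). The folate and heme transporter Slc46a1 passed in none of the 3 comparisons (-0.46 ± 0.15, adjusted p = 0.0566 in R1). In R2 the gene called up was Slc22a4, named after its values were seen, which had no count in naive R2 and 0.529, 0.867 and 0.299 CPM in CAWS R2, at least 11.8-fold higher against a floor of 3 counts over the group. That call was lost without naive R2 replicate 1, 2 or 3 or CAWS R2 replicate 2 (adjusted p 0.0523 to 0.096).

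Of the 35 mitochondrial carriers, 0 passed in R1, 2 rose in R2, and 3 rose and 1 fell in R3. For all genes tested, 6.07% rose and 2.87% fell in R1, 6.79% and 3.5% in R2, and 6.7% and 8.29% in R3. Slc25a3 measured 225, 227 and 217 CPM in naive R3 and 336, 356 and 284 in CAWS R3 (0.55 ± 0.11, adjusted p = 0.00233), which held with each library left out. In R2 the rise was 0.37 ± 0.11, adjusted p = 0.0409, lost with any 1 of the 6 libraries left out (adjusted p 0.0554 to 0.189), or with relative log expression scaling, with genes of low count kept or with the stricter filter (adjusted p 0.0531 to 0.0905). Slc25a5 rose in R2 (0.48 ± 0.15, adjusted p = 0.0414) and R3 (0.49 ± 0.15, adjusted p = 0.0285). The R2 call was lost with any 1 of the 6 libraries left out (adjusted p 0.0758 to 0.192), or with relative log expression scaling, with genes of low count kept or with the stricter filter (adjusted p 0.0526 to 0.0695), and the R3 call without naive R3 replicate 1, 2 or 3 or CAWS R3 replicate 1 or 2 (adjusted p 0.063 to 0.122). Slc25a39, a carrier of glutathione into mitochondria, rose in R3 from 83.2 ± 9.01 to 114 ± 10.3 CPM (0.45 ± 0.12, adjusted p = 0.0101), lost without naive R3 replicate 1 (adjusted p = 0.0626) or CAWS R3 replicate 1 (0.0505). The citrate carrier Slc25a1, the iron carrier Slc25a37 and Slc25a4 passed in none of the 3 comparisons.

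Carriers of nucleosides and nucleotide sugars, 25 genes, had 0 that rose: 1 fell in R1, 4 in R2 and 2 in R3. The shares of all genes that fell were 2.87%, 3.5% and 8.29%, and of those that rose 6.07%, 6.79% and 6.7%. The lysosomal nucleoside exporter Slc29a3 went from 422 ± 31.5 to 295 ± 52.4 CPM in R2 (-0.51 ± 0.15, adjusted p = 0.0356), lost without naive R2 replicate 1, 2 or 3 or CAWS R2 replicate 1 or 2 (adjusted p 0.050 to 0.183). Slc35a3, which loads the Golgi with UDP-N-acetylglucosamine, fell in R1 (-0.38 ± 0.10, adjusted p = 0.0208) and R2 (-0.39 ± 0.10, adjusted p = 0.0135). Its call was lost in R1 without naive R1 replicate 2 or 3 or CAWS R1 replicate 1 or 3 (adjusted p 0.0571 to 0.0749) and in R2 without naive R2 replicate 1 or 2 or CAWS R2 replicate 1 (adjusted p 0.056 to 0.094). Slc29a1, the plasma membrane nucleoside transporter, passed in none (-0.12 ± 0.10, adjusted p = 0.483 in R1). Of the 9 lipid carriers, the choline transporter-like Slc44a2 rose in R1 from 57.1 ± 5.35 to 92.6 ± 27.9 CPM (0.70 ± 0.16, adjusted p = 0.00863), lost without naive R1 replicate 3 (adjusted p = 0.051) or CAWS R1 replicate 2 (0.0883), or with only the compared groups in the fit (adjusted p = 0.0659). The fatty acid transporter Slc27a1 rose in R2 from 27.9 ± 0.617 to 42.5 ± 7.12 CPM (0.60 ± 0.17, adjusted p = 0.0288), lost without naive R2 replicate 1, 2 or 3 or CAWS R2 replicate 1 or 3 (adjusted p 0.0566 to 0.158).

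Whether the CAWS effect differed between populations was tested as a contrast. Between R2 and R1, 0 of the 186 genes passed, with 9 at an unadjusted p under 0.05, beside 0.0527% of all genes (0.0377% higher and 0.0151% lower). There 1 gene passed with DESeq2, with limma voom, with low genes kept, with only the compared groups, with the pool as a block and without the 3 widest libraries. In the reported fit the lowest adjusted p of that contrast was that of Slc13a3 (-0.83 ± 0.16, adjusted p = 0.0537). Between R3 and R1, 5 genes passed, all lower in R3, beside 2.26% of all genes (2.16% lower). Between R3 and R2, 5 passed, all lower, beside 2.33% (2.23% lower). DESeq2 called 8 in each (4.30%), beside 3.61% of all genes between R3 and R1 and 3.27% between R3 and R2. With limma voom 9 were called between R3 and R2 (4.84%), beside 4.69% of all genes. Of the 5 between R3 and R1, 3 were kept without replicate 1 or 2 of naive R1, replicate 3 of naive R3, replicate 1 of CAWS R1 or replicate 1 or 2 of CAWS R3. Of the 5 between R3 and R2, 4 were kept without naive R3 replicate 1, and 1 to 3 without any other single library of the compared groups.

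Slc30a4 was in both sets and Slc13a3 in the first, with the values given above. Slc18b1 differed by -1.60 ± 0.33 between R3 and R1 (adjusted p = 0.00632), lost without CAWS R3 replicate 1 (adjusted p = 0.0657), and by -1.42 ± 0.33 between R3 and R2 (adjusted p = 0.0192), lost without naive R2 replicate 1 or 2, naive R3 replicate 3, CAWS R2 replicate 2 or CAWS R3 replicate 1 or 3 (adjusted p 0.0539 to 0.133). Slc15a2 differed by -1.33 ± 0.31 (adjusted p = 0.022) and -1.21 ± 0.31 (adjusted p = 0.0375). The first was lost without naive R1 replicate 1 or 2, naive R3 replicate 3, CAWS R1 replicate 1 or CAWS R3 replicate 1 or 2 (adjusted p 0.0528 to 0.11), or without the 3 widest libraries (adjusted p = 0.0542). The second was lost without naive R2 replicate 1, 2 or 3, naive R3 replicate 2 or 3, CAWS R2 replicate 1 or 3 or CAWS R3 replicate 1 or 2 (adjusted p 0.0544 to 0.178), or with only the compared groups in the fit or without the 3 widest libraries (adjusted p 0.058 to 0.0643). Slc14a1 differed by -0.96 ± 0.24 (adjusted p = 0.0391) and -0.93 ± 0.24 (adjusted p = 0.0457). For Slc14a1 the first was lost without naive R1 replicate 1, 2 or 3, naive R3 replicate 1 or 3, CAWS R1 replicate 1 or 2 or CAWS R3 replicate 2 or 3 (adjusted p 0.0625 to 0.191), or with relative log expression scaling, with genes of low count kept, with the stricter filter or without the 3 widest libraries (adjusted p 0.0508 to 0.0723). The second was lost without naive R2 replicate 1, 2 or 3, naive R3 replicate 1, 2 or 3, CAWS R2 replicate 1 or 2 or CAWS R3 replicate 2 or 3 (adjusted p 0.0508 to 0.159), or with relative log expression scaling, with genes of low count kept, with the stricter filter or without the 3 widest libraries (adjusted p 0.0579 to 0.0759). Slc9a4, a sodium and proton exchanger, measured 0.632, 0.569 and 0.617 CPM in naive R2 against 1.32, 1.41 and 2.4 in CAWS R2, and 14.8, 10.8 and 10.3 in naive R3 against 5.78, 6.36 and 6.74 in CAWS R3. It fell in R3 (-0.92 ± 0.25, adjusted p = 0.0162), lost without naive R3 replicate 1 or CAWS R3 replicate 1 or 2 (adjusted p 0.0613 to 0.0906), or with DESeq2 (adjusted p = 0.103), and was higher without passing in R2 (1.48 ± 0.51, adjusted p = 0.067). The effects differed by -2.40 ± 0.57 (adjusted p = 0.0207), lost without naive R2 replicate 1, 2 or 3, CAWS R2 replicate 3 or CAWS R3 replicate 1 (adjusted p 0.0571 to 0.123).

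Transporters and accessory chains with other symbols were counted as 1 list of 47, of which 39 were tested. In R1, 3 rose and 2 fell, in R2, 5 rose and 3 fell, and in R3, 3 rose and 4 fell, with medians of -0.03, -0.07 and -0.08 on the log2 scale. Beside this list, 6.07% of all genes rose and 2.87% fell in R1, 6.79% and 3.5% in R2, and 6.7% and 8.29% in R3. The genes named next are among its largest changes. Emb, a chaperone of monocarboxylate carriers, rose by 0.99 ± 0.17 in R1, 1.14 ± 0.17 in R2 and 0.72 ± 0.16 in R3 (adjusted p = 0.000879, 7.60e-05 and 0.00284). The PQ-loop protein gene Pqlc3 rose by 0.91 ± 0.14, 0.88 ± 0.14 and 0.59 ± 0.13 (adjusted p = 0.000218, 0.000166 and 0.00443). The organic anion transporter Slco2b1 fell by 0.46 ± 0.14, 0.70 ± 0.14 and 1.46 ± 0.14 (adjusted p = 0.0423, 0.00198 and 3.90e-07). Its relative Slco3a1 rose in R1 by 1.11 ± 0.26 and in R2 by 1.36 ± 0.23 (adjusted p = 0.00975 and 0.000347).

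Naive populations were then compared with each other, which asks how transporter genes differ between macrophages of the resting heart. Between R2 and R1, which differ in MHC-II, 7 of the 186 genes were higher in R2 and 8 lower, beside 7.13% of all genes (3.88% higher and 3.25% lower). Between R3 and R1, 20 were higher in R3 and 53 lower, beside 23.1% (12.5% higher and 10.7% lower). Between R3 and R2, 11 were higher and 32 lower, beside 12.4% (6.63% higher and 5.77% lower). The medians of the 186 genes were 0.02, -0.16 and -0.15 against 0.00, 0.03 and 0.01 over all genes tested. With each library left out in turn, 8, 46 and 19 of the calls held in every fit. Between R3 and R2, 26 were called without naive R2 replicate 3 and 27 without naive R3 replicate 1, beside 7.81% and 7.95% of all genes. With only the compared groups in the fit, 30 of 183 were called between R2 and R1 (16.4%), beside 12.5% of all genes. These comparisons share their naive libraries with each other and with the CAWS comparisons.

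Slc9a4 and the fatty acid transporter Slc27a3 had the largest differences, both high in R3. Slc9a4 (gene ID 110895, chromosome 1, 40579986 to 40630731) measured 0.346, 0.869 and 0 CPM in naive R1 and 14.8, 10.8 and 10.3 in naive R3, and its log2 fold change of R3 over R1 was 4.84 ± 0.40, adjusted p = 1.14e-08 and of R3 over R2 4.28 ± 0.36, adjusted p = 2.17e-08. Slc27a3 (gene ID 26568, chromosome 3, 90385230 to 90390835) measured 0.445, 1.37 and 0.534 CPM in naive R1, 0.904, 1.65 and 1.32 in naive R2 and 22.8, 13.3 and 12.9 in naive R3 (R3 over R1 4.41 ± 0.40, adjusted p = 4.35e-08). Both genes were low in the monocytes, with 0.475 ± 0.264 and 0.774 ± 0.423 CPM (SD, n = 3), although the monocytes are Ccr2-positive as R3 is. In naive R1, naive R2 and the monocytes both stayed under the 2 CPM minimum for members. Among the naive groups they passed it through R3 alone, so their higher level there follows in part from the rule. Of its exon bases, 11.7% of Slc9a4 lie under a gene on the opposite strand, whose reads cannot be told apart here because the strand setting is not given. All of these calls held with each library left out.

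**Figure D4:**
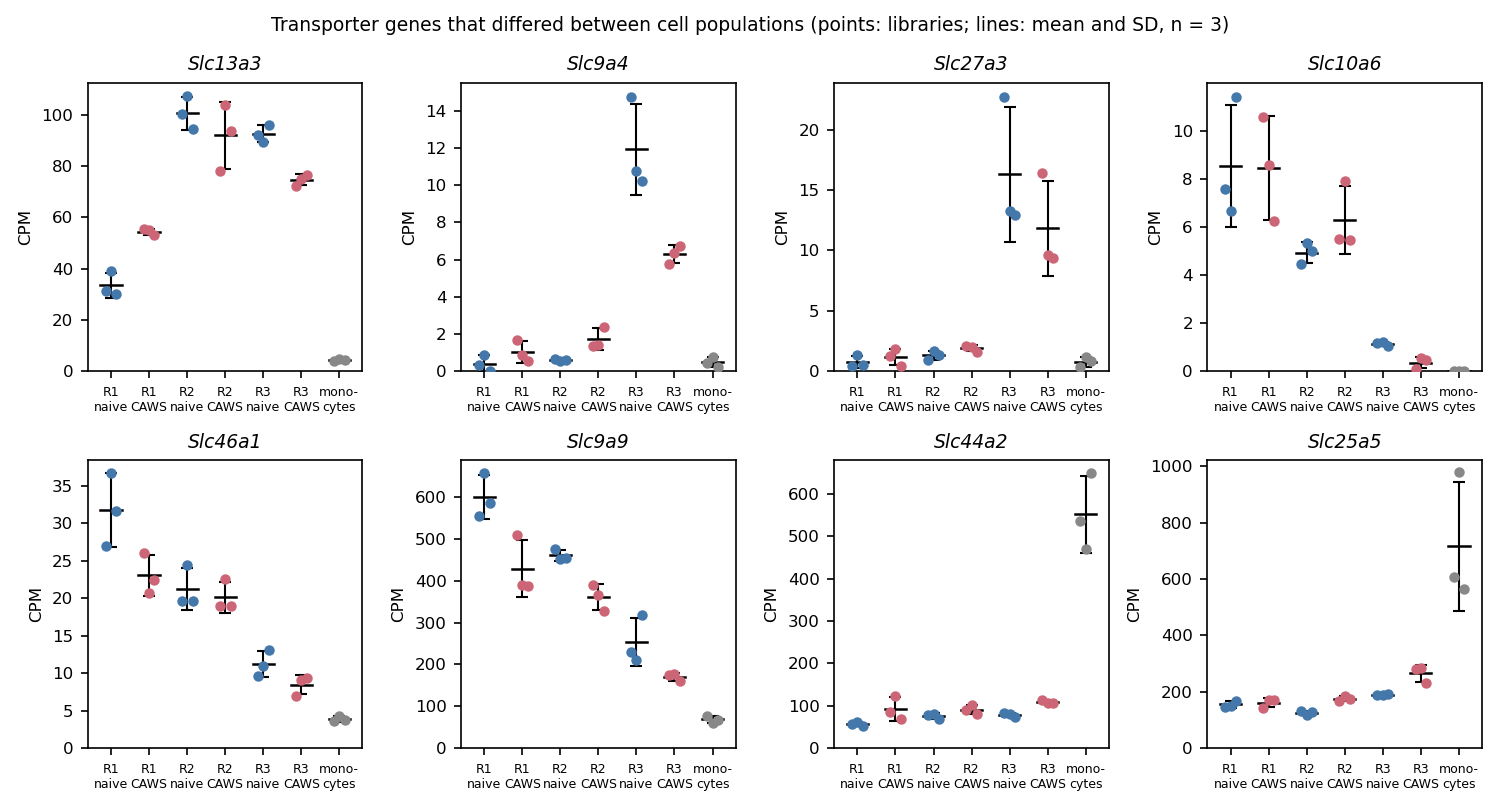
Points give the CPM of each library, and lines the mean and SD of 3, for 8 genes in the 7 groups. Slc9a4 and Slc27a3 are high in R3 and low elsewhere, Slc13a3 is lowest in the monocytes and naive R1, and Slc44a2 and Slc25a5 are highest in the monocytes.

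Slc13a3 was higher in both MHC-II-high populations. It measured 33.4 ± 4.75 CPM in naive R1 against 101 ± 6.4 in R2 and 92.6 ± 3.43 in R3, with log2 fold changes of 1.59 ± 0.12, adjusted p = 7.02e-09 and 1.47 ± 0.12, adjusted p = 6.85e-09, while R3 and R2 overlapped (-0.12 ± 0.11, adjusted p = 0.549). Slc7a6, a light chain that exchanges basic for neutral amino acids, was higher in both as well, with 4.16, 1.55 and 3.81 CPM in R1, 12.2, 8.93 and 8.55 in R2 and 16.6, 11.6 and 11.1 in R3 (R2 over R1 1.62 ± 0.26, adjusted p = 0.000304, R3 over R1 2.02 ± 0.26, adjusted p = 4.57e-06). Slc15a3 was higher in R2 (0.57 ± 0.13, adjusted p = 0.00491) and R3 (0.49 ± 0.13, adjusted p = 0.00658) than in R1, as was Slc29a3 (0.84 ± 0.15, adjusted p = 0.00105 and 0.55 ± 0.15, adjusted p = 0.0111). The bicarbonate cotransporter Slc4a7 was higher in R2 than in R1 (0.71 ± 0.12, adjusted p = 0.000578). Slc7a5 was higher in R3 than in R1 (1.04 ± 0.20, adjusted p = 0.000385), and Slc1a5 likewise (0.79 ± 0.13, adjusted p = 7.87e-05). These calls held with each library left out.

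Of the genes lower in R3, Slc10a6, a carrier of sulfated steroids, measured 7.57, 6.64 and 11.4 CPM in naive R1, 4.47, 5.35 and 4.98 in R2 and 1.16, 1.2 and 1.06 in R3 (R3 over R1 -2.88 ± 0.33, adjusted p = 1.65e-06). The fatty acid transporter Slc27a6 went the same way, with 6.64 ± 0.941, 2.7 ± 0.918 and 0.922 ± 0.655 CPM (-2.87 ± 0.36, adjusted p = 4.8e-06). In naive R3 both Slc10a6 and Slc27a6 stayed under the 2 CPM minimum for members, so their lower level there follows in part from the rule. Slc46a1 measured 26.9, 36.8 and 31.7 CPM in R1, 19.6, 24.5 and 19.7 in R2 and 9.61, 11 and 13.1 in R3 (-1.50 ± 0.16, adjusted p = 4.6e-07). In each of these genes every R3 library lay below every R1 library. Slc9a9, among the 4 most abundant genes per length, had 172 ± 15 RPKM in R1, 132 ± 3.87 in R2 and 72.4 ± 16.4 in R3 (R3 over R1 -1.25 ± 0.14, adjusted p = 5.94e-07). Slc15a2 and Slc18b1, which fell after CAWS in R3, were already lower in naive R3 than in naive R1 (-1.21 ± 0.20, adjusted p = 7.49e-05 and -1.43 ± 0.19, adjusted p = 5.11e-06). The arginine carrier Slc7a2 was lower too, with 6.18 ± 1.21 CPM against 15.3 ± 5.9 (-1.31 ± 0.31, adjusted p = 0.00334). Of 30 amino acid and peptide carriers, 12 were lower and 8 higher in R3 than in R1. In the same order the counts were 9 and 1 of 20 vitamin and organic ion carriers and 8 and 4 of 25 ion carriers. They were 6 and 1 of 18 sugar and monocarboxylate carriers, 5 and 0 of 35 mitochondrial carriers and 5 and 2 of 24 metal carriers. Nucleoside carriers (25) had 5 and 2, and lipid carriers (9) 3 and 2. Of all genes tested, 10.7% were lower and 12.5% higher. As given above, the resident macrophage list is lower and the monocyte list higher in naive R3 than in naive R1. Other lists moved with this comparison without overlap. In naive R1 against naive R3 the dendritic cell list stood at 8.75 to 10.9 CPM against 275 to 539, the cardiomyocyte list at 49.0 to 65.3 against 118 to 140.1, the B cell list at 10.02 to 19.7 against 30.4 to 45.04, and the erythroid list at 38.3 to 56.7 against 13.8 to 20.3. The list of general macrophage genes stood at 10590 to 11363 CPM against 8214 to 8977. For the endothelial list it was 12.5 to 19.1 against 21.3 to 36.7, and for the neutrophil list 44.9 to 49.6 against 52.6 to 64.5. The part of these lists in the differences was not tested.

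**Figure D5:**
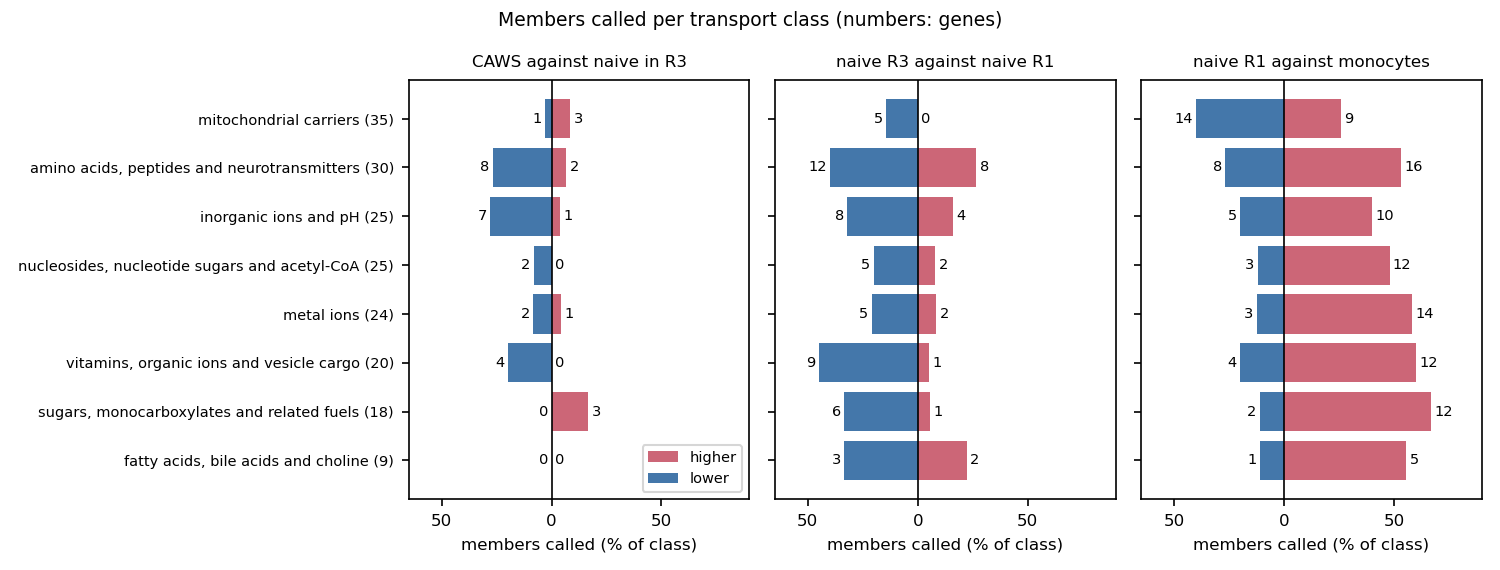
Bars give the share of each transport class called higher (right) or lower (left) in CAWS R3 against naive R3, in naive R3 against naive R1 and in naive R1 against monocytes, and the numbers are genes. Mitochondrial carriers are the one class with more genes lower (14) than higher (9) in naive R1 against monocytes. Over all genes tested, 30.8% were lower and 32.5% higher there.

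Each naive macrophage population was compared with the splenic monocytes, which differ in tissue as well as in cell type. Of the 186 genes, 90 were higher and 40 lower in R1, beside 63.3% of all genes (32.5% higher and 30.8% lower). In R2, 94 were higher and 41 lower, beside 63.6% (33.1% and 30.5%). In R3, 81 were higher and 37 lower, beside 58.9% (31.9% and 27.1%). The medians of the 186 genes were 0.37, 0.45 and 0.17, against 0.05, 0.08 and 0.06 over all genes tested. The 3 comparisons share the monocyte libraries. The cardiomyocyte list, at 49.0 to 156 CPM in the macrophages and near 0 in the monocytes, moved with these comparisons. The neutrophil list moved the other way, with 44.9 to 65.5 CPM in the naive macrophages and 599 to 718 in the monocytes, and the list of general macrophage genes stood at 8214 to 12148 CPM in the naive macrophages and at 4196 to 4888 in the monocytes. The part of these lists in the comparisons was not tested.

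By class, sugar, monocarboxylate and related carriers were higher in R1 for 12 of 18 genes and lower for 2, metal carriers for 14 of 24 and 3, and vitamin and organic ion carriers for 12 of 20 and 4. Amino acid and peptide carriers were higher for 16 of 30 and lower for 8. Mitochondrial carriers were lower for 14 of 35 and higher for 9, and in R2 and R3 they were lower for 15 and 14 and higher for 6 and 4. The median of this class was -0.25, -0.35 and -0.28 in R1, R2 and R3. Beside the class counts, all genes tested were higher at 32.5% and lower at 30.8% in R1. These shares were 33.1% and 30.5% in R2, and 31.9% and 27.1% in R3.

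Slc30a4 measured 35.9, 45.3 and 45.7 CPM in naive R1 and 1.16, 0.955 and 1.4 in the monocytes (R1 over monocytes 5.15 ± 0.18, adjusted p = 2.79e-16). The magnesium transporter Slc41a2 measured 18.3, 27.3 and 31.8 against 0.257, 0.341 and 0.392 CPM (6.23 ± 0.33, adjusted p = 1.18e-13). Slc18b1 measured 25.5 ± 2.73 against 0.33 ± 0.351 CPM (6.14 ± 0.33, adjusted p = 1.9e-13) and the creatine transporter Slc6a8 13 ± 1.82 against 0.249 ± 0.126 (5.65 ± 0.34, adjusted p = 7.52e-13). All 4 were near the bottom of their range in the monocytes and were called in R2 and R3 too. In the monocytes all 4 stayed under the 2 CPM minimum for members, which they passed through macrophage libraries alone. Their higher level in macrophages therefore follows in part from the rule. Slc37a2, Slc7a8 and Slc9a9 were higher in macrophages by 3.25 ± 0.13, 3.54 ± 0.14 and 3.11 ± 0.15 in R1. Slc3a2 was higher by 2.04 ± 0.11, adjusted p = 6.46e-13. There was no count for 4 genes in any monocyte library. Slc10a6 was at least 137-fold higher in naive R1, Slc27a6 at least 106-fold, Slc16a12 at least 63.0-fold and Slc7a13 at least 55.9-fold, against a floor of 3 counts over the monocyte group. Without a monocyte count, these genes could pass the minimum for members only through macrophage libraries, so a higher level in macrophages follows in part from the rule.

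In the other direction stood Slc44a2, with 535, 469.6 and 649 CPM in the monocytes against 57.7, 62.1 and 51.5 in naive R1 (R1 over monocytes -3.27 ± 0.17, adjusted p = 1.41e-13). Slc25a5 measured 605, 978 and 564 CPM in the monocytes and 147, 151 and 168 in naive R1 (-2.20 ± 0.15, adjusted p = 2.58e-11), with monocyte replicate 2 above the other two. The ergothioneine transporter Slc22a4 measured 8.29, 9.01 and 7.96 CPM in the monocytes and 0.643, 0 and 0.134 in naive R1, with 0 in naive R2, where the monocytes were at least 175-fold higher. Slc22a4 passed the minimum for members in the monocyte libraries only, so its direction here was fixed by the rule. The lysosomal carrier Slc46a3 was lower in macrophages than in monocytes in R1 (-1.37 ± 0.16, adjusted p = 1.23e-07), R2 (-1.68 ± 0.16, adjusted p = 5.8e-09) and R3 (-1.83 ± 0.16, adjusted p = 2.63e-09). Slc38a2 overlapped between monocytes and both R2 and R3. Slc7a11 was higher in the monocytes (2.79 ± 1.43 CPM) than in naive R1 (R1 over monocytes -1.91 ± 0.49, adjusted p = 0.00186), while the CAWS R1 and CAWS R2 means of 4.99 ± 1.82 and 7.26 ± 0.101 CPM lay above it. Of the calls named against monocytes in R1, R2 and R3 in these 3 paragraphs, each held with every library left out.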

How the data were processed

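RNA of 21 libraries, 3 in each of 7 groups, was prepared with RNeasy Plus and TruSeq RNA kits, per the labels' protocols. The values are read counts per gene that the authors deposited, made with featureCounts on mm10 per the submitters' processing notes. For the aligner, annotation release, strand setting and versions, nothing is given in the sources used here. Symbols and protein-coding status of 25275 of 27179 gene IDs came from RefSeq (GRCm38.p6), and 1904 IDs had none.

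Groups were taken from the labels. The counts were tested with edgeR 4.0.16 in R 4.3.3 (robust quasi-likelihood test, two-sided, TMM scaling with factors of 0.909 to 1.06) on 13275 genes that passed filterByExpr (minimum count 10, minimum total 15). One fit held all 21 libraries, with 14 residual degrees of freedom, and gave 12 contrasts. Adjusted p-values are Benjamini-Hochberg over all genes tested, and a gene passed, or was called, under 0.05. Fold changes are log2 ± SE. CPM are TMM-adjusted, and RPKM use the deposited gene lengths. Means are given ± SD over 3 libraries. Counts between replicates differed by more than sampling noise, with a chi-square per degree of freedom of 9.79 to 128. The fit was tested on simulated data.

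Alternatives were relative log expression scaling, DESeq2 1.42.0, limma 3.58.1 voom with sample weights, no filter, a stricter filter (2 CPM in 3 libraries), only the compared groups, members at 5 CPM, the replicate block and each library left out. A fit without the 3 widest libraries was added after seeing the data. The series design names independent pools, each divided into the 3 macrophage populations, but the labels give only replicate numbers. Across 7064 genes, deviations of same-numbered macrophage libraries correlated by 0.151 to 0.638 within a treatment (18 values) and by -0.296 to 0.263 between CAWS and naive macrophages (27 values). Between macrophages and monocytes they ran from -0.182 to 0.703 (18 values), with both signs also among naive libraries. Equal numbers were therefore read as 1 pool only among macrophages of a treatment. In the CAWS and monocyte contrasts the block is a number the groups share, which does not pair them.

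The members and gene lists were chosen with earlier results of these data known. Named were a list of 31 followed genes, of which 30 are members, and per contrast and direction the 8 largest called changes without overlap whose higher group had a mean log2 CPM of 2 or more. Added after their values were seen were Slc39a4, Slc1a4, Slc22a4, Slc23a2, Slc25a39, Slc35a3, Slc6a8, Slc7a1, Slc29a1 and Slc12a7 in CAWS comparisons, Slc15a2 in naive R3 against R1, and values of named genes in further contrasts. Of 186 members, 183 were found in GENCODE, and 17 share over 10% of their exon bases with another gene.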

Additional observations from a re-analysis of the deposited data

Results flagged for a closer look

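The CAWS effect differed between R3 and another population for 6 genes, in 10 gene and contrast pairs that passed the test of the difference itself. Against R1 and against R2, 5 of the 186 genes passed (2.69%), near the 2.26% and 2.33% of all genes tested. Most of all genes that passed were lower in R3 too (2.16% and 2.23%). Each value below is the log2 effect in R3 minus that in the other population. Against R1 the differences were -0.99 for the zinc transporter Slc30a4, -1.02 for the dicarboxylate carrier Slc13a3, -1.60 for the polyamine carrier Slc18b1, -1.33 for the peptide transporter Slc15a2 and -0.96 for the urea transporter Slc14a1. Against R2 they were -0.86 for Slc30a4, -1.42 for Slc18b1, -1.21 for Slc15a2, -0.93 for Slc14a1 and -2.40 for the sodium and proton exchanger Slc9a4. Both differences of Slc30a4 and that of Slc13a3 held with each library left out, and the other 7 did not. For Slc13a3 the effect in R2 minus that in R1 was also low, at -0.83 (adjusted p = 0.0537). Its effect in R3 minus that in R2 was -0.18 (adjusted p = 0.758). The resident macrophage list stood at 0.474 times its naive mean in R3, against 0.698 in R1 and 0.817 in R2, and its part in these differences was not tested.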

How the results depend on the processing

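Every member called in a CAWS or naive contrast, and those named against monocytes, made 324 gene and contrast pairs. Of their 4571 values under the alternatives, 3996 kept their direction and their side of the threshold, 575 no longer passed and 0 reversed, and 195 pairs were kept in every alternative. Of 197 counts of genes called, 154 stayed within 1.5 times the reported count. For CAWS in R2 the count was 46 with only the compared groups and 48 with limma voom, beside 22.4% and 21.2% of all genes. For naive R2 against R1 it was 30 with only the compared groups, beside 12.5% of all genes. For the difference in CAWS effect between R2 and R1, 1 gene was called with no filter, with the replicate block, with only the compared groups, with DESeq2, with limma voom and without the 3 widest libraries, against 0. DESeq2 called 8 for each of the R3 differences, beside 3.61% of all genes against R1 and 3.27% against R2. With limma voom 9 were called for that between R3 and R2, beside 4.69% of all genes. The cause of these shifts was not tested.

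With each library left out in turn, the counts were 9 to 15, 8 to 13 and 16 to 27 for CAWS in R1, R2 and R3. They were 10 to 16, 55 to 71 and 26 to 43 for naive R2 against R1, R3 against R1 and R3 against R2, and 120 to 136, 123 to 134 and 107 to 113 for R1, R2 and R3 against monocytes. For the differences in CAWS effect they were 0 to 1, 3 to 5 and 1 to 5. With the replicate block, taken as the pool within each treatment, the counts were 18, 77 and 43 between naive populations and 1, 5 and 5 for the differences in effect. With the number as a replicate block shared by the groups, which pairs no samples here, they were 20, 27 and 38 for CAWS in R1, R2 and R3 and 131, 135 and 120 against monocytes. The block changed no other count by over 1.5 times. Low counts limit the genes that stood at a few CPM or less in at least 1 of the groups compared. Among them are Slc7a11, Slc39a4, Slc1a4, Slc9a4, Slc22a4, Slc18b1, Slc27a3, Slc27a6 and Slc10a6.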
